A study of Mus musculus with 1699 samples.

Results

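The genes described are 9 that carry mutations in inherited parkinsonism, Pink1, Park7, Fbxo7, Uchl1, Dnajc6, Synj1, Vps35, Atp13a2 and Lrrk2, out of 39468 gene entries. They were listed by name, with earlier results of these data known, and no measured value enters the rule. Their levels were followed in single ventral midbrain cells sorted for GFP, by stage, by Pitx3 genotype and by 3 cell classes. Each cell was sequenced by Smart-seq2, a full-length method with whole-transcript reads and no molecular identifiers.

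The mice carried eGFP in the Pitx3 locus (allele Pitx3tm1Mli), so every cell came from a mouse with at least 1 disrupted Pitx3 allele. Pitx3eGFP/wt cells, from heterozygous mice, were taken at E13.5, E15.5 and E18.5 in the embryo and at P1, P7 and P90 after birth. Pitx3eGFP/eGFP cells, which lack intact Pitx3, were taken at E13.5 and P1. Of 1699 cells, 1649 passed a filter on reads and detected genes, and of these the 11% that carried 3 or more oligodendrocyte markers were set aside, which kept 1468. Among the kept cells 1132 were Pitx3eGFP/wt and 336 Pitx3eGFP/eGFP. Pitx3eGFP/wt cells of E13.5 made up 9.54% of all kept cells, those of E15.5 9.6% and those of E18.5 12.1%. Of the postnatal Pitx3eGFP/wt cells, P1 gave 18.1% of the total, P7 5.86% (86 cells) and P90 21.9%. Pitx3eGFP/eGFP cells gave 12.1% at E13.5 and 10.8% at P1. Reads on genes ranged from 100007 to 8634201 per kept cell, with group medians between 749734 and 2357900. The labels tie no cell to an animal, and each combination of stage and genotype was therefore treated as 1 sample. Plates named below were read from the number in the middle of a cell's title, where it has one. No label calls that number a plate, so it may not match a physical plate. No test between groups was made, and each interval below covers counting error only. Different dissociation kits were used for the embryonic, the P1 and P7, and the P90 cells, so dissociation and age cannot be told apart. Added spike-in RNA was absent from the Pitx3eGFP/wt cells at E13.5 and present at P90, so it cannot be told apart from age there either. Per the authors' methods, cells of E18.5 also had it and those of E15.5 and P7 did not. Between E13.5 and E18.5 it thus cannot be told apart from age. At P1 only 93 of the kept Pitx3eGFP/wt cells had it, so the P1 means pool cells with and without it.

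The labelled cell type was checked with markers. All 6 dopamine neuron markers (Th, Slc6a3, Slc18a2, Ddc, Pitx3 and Nr4a2) had a mean RPKM over 10 in every Pitx3eGFP/wt group, pooled over its cells. RPKM is the read count of a gene scaled to the length of its transcript and to the reads of the cell. Pitx3 itself averaged an RPKM of 416 in Pitx3eGFP/wt and 18.9 in Pitx3eGFP/eGFP cells at E13.5. At P1 it averaged 116.9 and 8.34 among cells with spike-in RNA. Markers of other glia remained in part. The kept cells with at least 3 astrocyte, microglia or vascular markers over an RPKM of 10 numbered 15 at P1, 19 at P7 and 16 in Pitx3eGFP/eGFP at P1, 1 each at E15.5 and E18.5, and 0 in the other groups. The summed mean RPKM of 5 astrocyte markers was 1155 at P7, where all 5 exceeded 10, and 2.43 at P90. A cell was called Slc6a3-high, Nxph4-high or Gad2-high when that gene alone of the 3 exceeded an RPKM of 150. Slc6a3 encodes the dopamine transporter, Nxph4 a neurexophilin and Gad2 a GABA-synthesising enzyme. Slc6a3-high cells were 23.7% of the kept cells, Nxph4-high cells 23.6% and Gad2-high cells 11.9%. A further 560 cells passed for none and 39 for more than 1 of the 3. Slc6a3 is 1 of the 6 dopamine neuron markers and also defines a class. The rule therefore set part of any difference between classes in their sum. At P90 the summed mean RPKM of the 6 dopamine neuron markers was 10220 in Slc6a3-high cells, 20.5% of P90 cells. It was 503 in Nxph4-high (44.7%) and 1242 in Gad2-high cells (17.7%), each with 5 of the 6 over 10. The means over all P90 cells are thus not those of Slc6a3-high cells alone.

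The products of these genes meet in the upkeep of mitochondria and of membrane traffic. PINK1 is a kinase that gathers on damaged mitochondria and marks them for removal, FBXO7 is the substrate receptor of an SCF ubiquitin ligase, DJ-1 (from Park7) guards against oxidative and carbonyl damage, and UCHL1 is an abundant neuronal ubiquitin hydrolase. Auxilin (Dnajc6) and synaptojanin 1 (Synj1) act in shedding the clathrin coat from vesicles newly formed at the synapse. VPS35 is the core of retromer, which retrieves cargo from endosomes, ATP13A2 moves polyamines out of lysosomes, and LRRK2 is a kinase of Rab GTPases. Dopamine neurons of the substantia nigra are the cells lost in parkinsonism.

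In mean RPKM 8 of the 9 genes were higher at P90 than at E13.5, Lrrk2 included. Uchl1 was nearly equal, at 1349 and 1269. In RPM, reads summed over a group and scaled to its library size but not to length, it was slightly lower, at 1009 and 1014. Pink1, Fbxo7 and Dnajc6 were higher by at least 2-fold in mean RPKM, and none was lower by 2-fold. In RPM Fbxo7 and Dnajc6 were higher by less than 2-fold, and Synj1 by more than 2-fold. Lrrk2 was also over 2-fold higher, but its mean at E13.5 was under 1 and it passed the level filter, 2 group means that average at least 1, through P90 alone, so no other call than higher was possible for it. Across the 14401 entries whose 2 group means averaged at least 1, 22.9% were at least 2-fold higher and 23.6% at least 2-fold lower at P90. The median log2 ratio was 0.75 over the 9 genes, Lrrk2 included, and −0.11 over all those entries. Between E13.5 and E18.5 none of the 8 genes that passed this level filter differed by 2-fold. Of the 14139 entries tested there, 16% were higher and 11.7% lower. Between P1 and P90 none of the genes but Lrrk2, which again passed the filter through P90 alone, differed by 2-fold, against 12.1% of 14908 entries higher and 20.3% lower. The P1 means pool cells with and without spike-in RNA. Against the 93 P1 cells with it, Pink1 and Synj1 were more than 2-fold higher at P90. Pink1 stood at 69.4 in those P1 cells and 151.4 at P90, and Synj1 at 21.9 and 51.9. The share over all entries is not given for those cells. The number of the 9 genes over an RPKM of 10 in a cell had a median of 6 at E13.5 and 7 at P90. Cells with all genes but Lrrk2 over 10 made up 2.14% of cells at E13.5 and 40.7% at P90. Detection over all entries was also higher at P90. The median cell had a read for 21.6% of the entries seen in any cell at E13.5 and for 27.8% at P90. Its part in these counts was not tested.

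**Figure D1:**
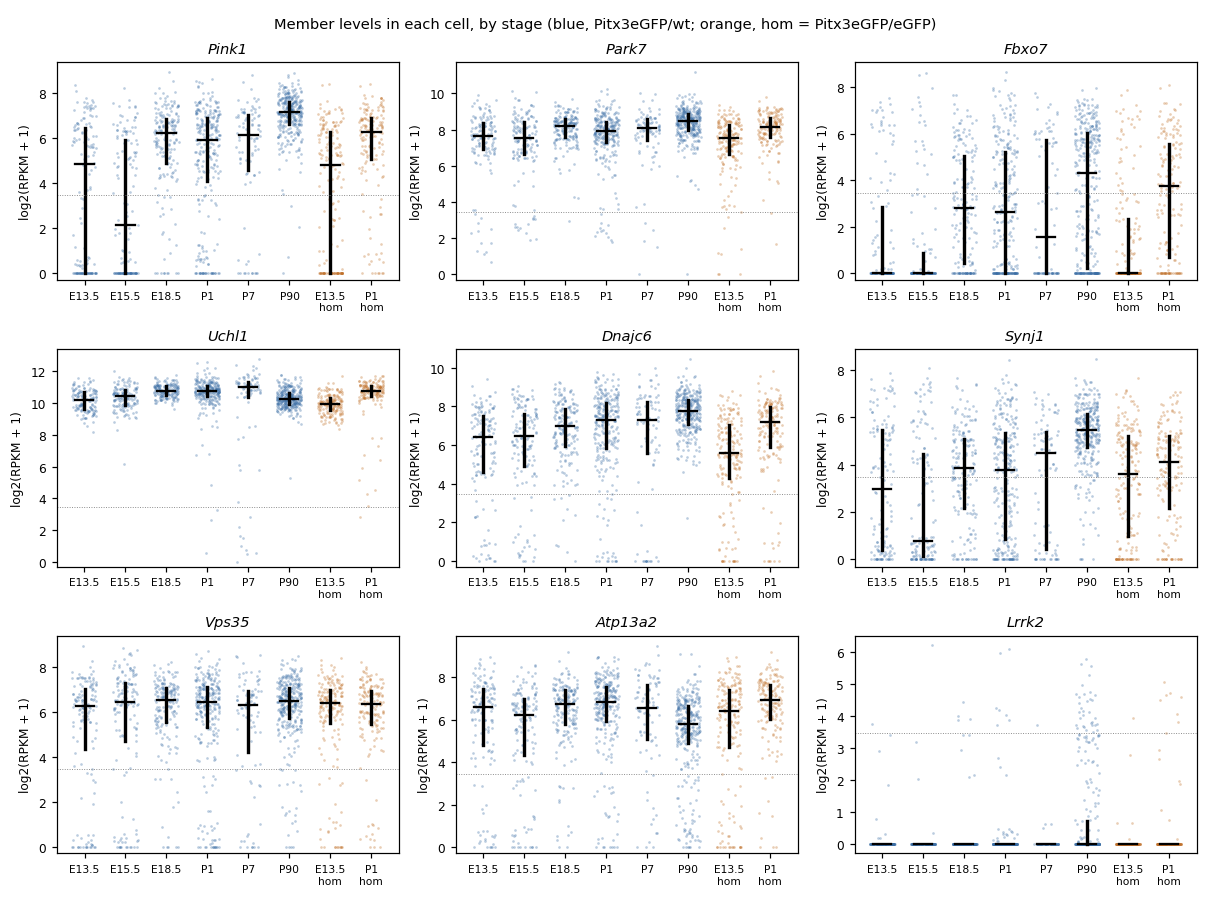
Level of each gene in each kept cell as log2(RPKM + 1), by stage, with Pitx3eGFP/wt cells in blue and Pitx3eGFP/eGFP cells (hom) in orange. Black horizontal marks are medians, black vertical bars the interquartile range and the dotted line an RPKM of 10. Pink1, Fbxo7 and Synj1 have many cells near 0 at E13.5 and E15.5, Uchl1 is high in nearly every cell, and Lrrk2 is at 0 in most cells of every group.

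Pink1 lies on the minus strand at chr4:138313409-138326307 (GRCm38, the build that mm10 names). Its mean RPKM over the embryonic stages was 53.9 at E13.5, 34.4 at E15.5 and 85.3 at E18.5. After birth it was 76.1 at P1, 87.3 at P7 and 151.4 at P90. E15.5 was the lowest stage and P90 the highest. The interquartile range of the cells ran from 0 to 87.7 at E13.5 and from 96.7 to 196.2 at P90, so these did not overlap. Pink1 exceeded an RPKM of 10 in 55.7% of cells at E13.5 (exact 95% interval 47.1 to 64.1) and in 98.8% at P90 (96.9 to 99.7). The log2 ratio of means was 1.49, and 84.2% of pairs of a P90 and an E13.5 cell had the P90 cell higher. Against P1 the ratio at P90 was 1.99-fold, just under the 2-fold line. Against the 93 P1 cells with spike-in RNA, which averaged 69.4, Pink1 at P90 was over that line. The 4 plates of P90 cells had Pink1 means between 132.9 and 165.6, each above every earlier stage.

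Fbxo7 (chr10:86021972-86051873, plus strand) was detected in fewer cells. It averaged an RPKM of 18.2, 17.1 and 22.7 over the 3 embryonic stages in order of age, and of 29.8, 30.3 and 39.3 over the 3 postnatal ones. The share of cells over 10 was 22.1% (15.6 to 29.9) at E13.5, 14.9% (9.46 to 21.9) at E15.5 and 55.3% (49.7 to 60.8) at P90. The stages formed 2 sets by this share, with E13.5 and E15.5 low and the 4 later stages at 40.4% or more. The transcript length implied by the reads and the RPKM of a cell was not the same in every cell. For Fbxo7 it had a median of 1243 bases at E13.5 and 1258 at P90, and of 3802 at E18.5 and at P1. In RPM, which scales the reads summed over a group to its library size and not to length, Fbxo7 stood at 26.3 at E13.5 and 48 at E18.5. At P1 it stood at 51.1 RPM and at P90 at 50.8 RPM, so on this scale the step lay between E13.5 and E18.5, and P90 was less than 2-fold above E13.5. Spike-in RNA and age cannot be told apart over that step.

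Park7 (chr4:150897133-150914437, minus strand) was near universal. In the embryo it averaged an RPKM of 242.1 at E13.5, 240.6 at E15.5 and 299.3 at E18.5. The postnatal means were 268.3 at P1, 284.9 at P7 and 376 at P90, a log2 ratio of 0.63 between P90 and E13.5. It exceeded 10 in 91.4% of E13.5 and 99.7% of P90 cells. The interquartile ranges of the cells overlapped widely, at 120.965 to 327.5 and 248.9 to 467, so the shift was within the spread between cells.

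Uchl1 (chr5:66676091-66687234, plus strand) had the highest level of the 9 per length. The embryonic means were 1269, 1444 and 1815 in order of age. The mean RPKM was 1805 at P1, 1984 at P7 and 1349 at P90. The order put P7 highest and E13.5 lowest, with P90 near E13.5. Every cell at E13.5, E15.5, E18.5 and P90 exceeded an RPKM of 10, and 89.5% (81.1 to 95.1) did so at P7, the group with the most glial markers. Without the P7 cells that had at least 3 astrocyte, microglia or vascular markers the share was 97% (89.6 to 99.6), 65 of 67 cells. In the 93 oligodendrocyte-like cells of P7 that were left out, the median Uchl1 level was 75.3 and that of Dnajc6 0, while Pink1 and Park7 had medians of 127.6 and 260. The antisense gene Uchl1os overlaps 18.1% of the exonic bases of Uchl1, and reads of both strands cannot be told apart in these unstranded libraries. The same holds for 5.08% of Fbxo7, which overlaps A230060F14Rik, and 1.92% of Vps35, which overlaps Orc6.

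The start regions of these genes were read from RefSeq promoter windows on GRCm38.p6, which matched 8 of the 9 genes in 11 windows of 250 bases before to 50 bases after a start. Vps35 had no window. The recognition letters of nuclear respiratory factor NRF1, an activator of nuclear genes for mitochondrial proteins, are GCGCA, any base, then GCGC. Searched on both strands, they occurred in Pink1, Park7 and Fbxo7 and in none of the other windows. They occurred in 4.603% of 32851 promoter windows of the same length. The matches are shown with 10 flanking bases on each side, 5′ to 3′ on the strand of the gene, and the capitals mark the match.

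Pink1, chr4:138326287-138326316, minus strand, overlapping an exon of Pink1: accgccccccGCGCTTGCGCacaggcgccg

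Park7, chr4:150910030-150910059, minus strand, within the gene: aggggcaattGCGCAGGCGCccgcagggtg

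Fbxo7, chr10:86021793-86021822, plus strand, over an exon of A230060F14Rik: agcaaacccaGCGCCTGCGCcgtgcgcgcc

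Fbxo7, chr10:86021858-86021887, plus strand, over the same antisense gene: cgatagggaaGCGCAGGCGCtcggccctcc

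A match describes the letters and is not a bound site. The other motifs searched on both strands, with overlapping matches counted separately, were the GC box GGGCGG (6 genes, 35.7% of all windows), the E-box CACGTG (Fbxo7, 7.15%), TATAAA (0 genes, 13.6%), CCAAT (0 genes, 37.4%) and the antioxidant element TGACNNNGC (0 genes, 12.4%). CpG pairs numbered between 9 and 40 per window in the 8 genes, against a median of 7 over all windows.

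Of the pair that uncoats clathrin vesicles, Dnajc6 (chr4:101496648-101642799, plus strand) was the more abundant. Over E13.5, E15.5 and E18.5 its RPKM averaged 118.1, 131.8 and 162.9. The means then stood at 199.2 at P1, 207.4 at P7 and 247.4 at P90, so each stage had a higher mean than the stage before. This order did not hold within the P1 cells or in RPM. The 93 P1 cells with spike-in RNA averaged 149.6, below E18.5, and those without it 226.1, above P7. In RPM P7 stood at 282.1, below E18.5 at 316.6 and P1 at 318.6. The interquartile range of cells ran from 23.3 to 178.5 at E13.5 and from 133.6 to 325.4 at P90, an overlap. The log2 ratio of means between these stages was 1.07. In RPM the values were 199.7 and 351.7, a difference of less than 2-fold. The implied Dnajc6 transcript length had a median of 1686 bases at E13.5 and 1525 at P90.

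Synj1 (chr16:90936092-91011308, minus strand) had similar means until P7. The mean RPKM was 30.9 at E13.5 and lay between 25.4 (E15.5) and 30.1 (P1) at the next 4 stages, with 26 at E18.5 and 29.7 at P7. At P90 it was 51.9. The ratio to E13.5 was 0.75 on the log2 scale and did not reach 2-fold. In RPM Synj1 went from 89 to 213.6, which did. The P1 cells with spike-in RNA averaged a Synj1 RPKM of 21.9, and P90 was more than 2-fold above them. The share of cells with Synj1 over 10 was 47.9% (39.3 to 56.5) at E13.5, 35.5% at E15.5 and 59.6% at E18.5, so it differed more than the means did. After birth it was 53.6% (47.4 to 59.7) at P1, 60.5% (49.3 to 70.8) at P7 and 91% (87.3 to 93.9) at P90. The difference in share between P90 and P1 was 37.4 percentage points (Newcombe interval 30.5 to 44).

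**Figure D2:**
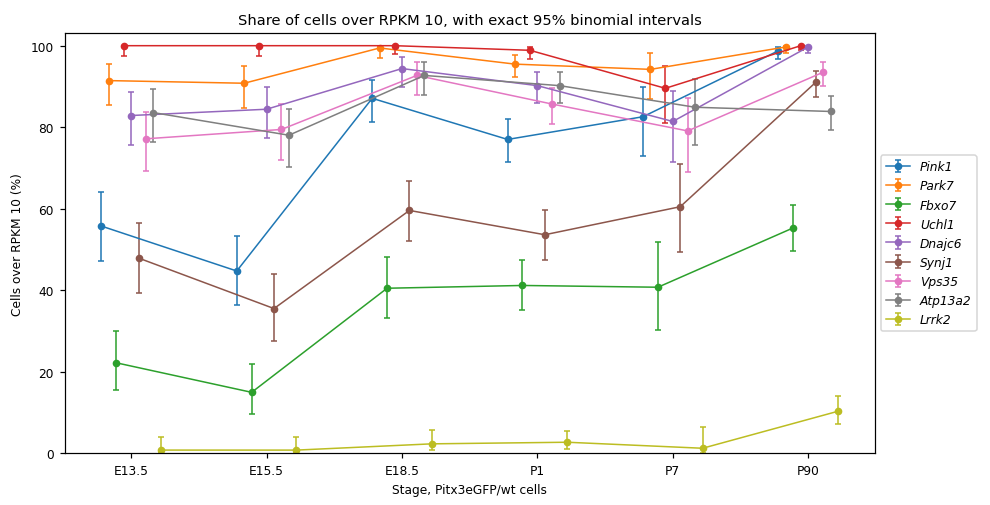
Share of Pitx3eGFP/wt cells over an RPKM of 10 (y axis, percent) at each stage (x axis), 1 line per gene, with exact 95% binomial intervals that cover counting error only. Pink1 goes from 55.7% to 98.8%, Synj1 from 47.9% to 91% and Fbxo7 from 22.1% to 55.3% between E13.5 and P90, while Uchl1 lies at or near 100% apart from P7 and Lrrk2 stays at or below 10.2%.

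A further 2 genes act at the endosome and the lysosome. Vps35 (chr8:85260392-85299802, minus strand) had nearly the same level at each stage, with an RPKM that averaged 83.3, 106.3 and 94.9 over the embryonic stages and 96.5, 89.2 and 98.6 over the postnatal ones. Atp13a2 (chr4:140986873-141007330, plus strand) was the only gene of the 9 with a lower mean RPKM at P90 than at E13.5. It averaged 115.2 at E13.5 and again 115.3 at E18.5, with 86.9 at E15.5 between them. After birth the means were 132.7 at P1, 131.7 at P7 and 70.2 at P90. P90 was the lowest stage, with a median of 54.1 against 112.1 at P1. The log2 ratio of means was −0.71 to E13.5 and −0.92 to P1, neither of which reached 2-fold. In RPM Atp13a2 stood at 319.5 at P1 and 144.4 at P90, a difference of over 2-fold. The share of cells with Atp13a2 over 10 hardly differed, at 83.6% (76.4 to 89.3) at E13.5 and 83.9% (79.4 to 87.7) at P90 although the mean was lower at P90.

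For every gene, the stage and genotype groups were placed in order of their mean. In all 63 neighbouring pairs of that order the interquartile ranges of the cells overlapped. Neighbours in such an order have the closest means, so overlap was likely beforehand and says nothing of groups further apart. For Pink1 the ranges at E13.5 and at P90 did not overlap.

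Lrrk2 (chr15:91673175-91816120, plus strand) was near the lower limit of detection. Its mean RPKM stayed under 1 until P7, at 0.23, 0.596 and 0.538 over the embryonic stages, 0.835 at P1 and 0.157 at P7. At P90 it was 2.86. The median cell had 0 in every group, P90 included. A Lrrk2 read was found in 98 cells at P90 (30.4%, exact 95% interval 25.5 to 35.8) and in 50 of the 810 Pitx3eGFP/wt cells of E13.5 to P7 (6.17%, 4.62 to 8.06). After each cell had been thinned to 100000 reads, which removed no kept cell, the share with a Lrrk2 read was 20.8% at P90 and between 1.16% and 4.49% at the earlier stages. The difference in detection was thus also seen at equal depth. Over an RPKM of 10 stood 10.2% of P90 cells and 0.714% of E13.5 cells, a difference of 9.53 points (5.23 to 13.4). The P90 plates had Lrrk2 means between 0.876 and 3.53. All Lrrk2 reads of E18.5 lay on 1 of its 2 plates. Of the oligodendrocyte-like cells left out, 22% at P1 and 11.8% at P7 had a Lrrk2 read, at 20 and 4.81 RPM. The kept cells of P90 stood at 13.3 RPM. Kept P1 cells stood at 2.3 RPM, and at 1.36 RPM without those that had at least 3 astrocyte, microglia or vascular markers. The part of glial cells in the Lrrk2 values was not tested.

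**Figure D3:**
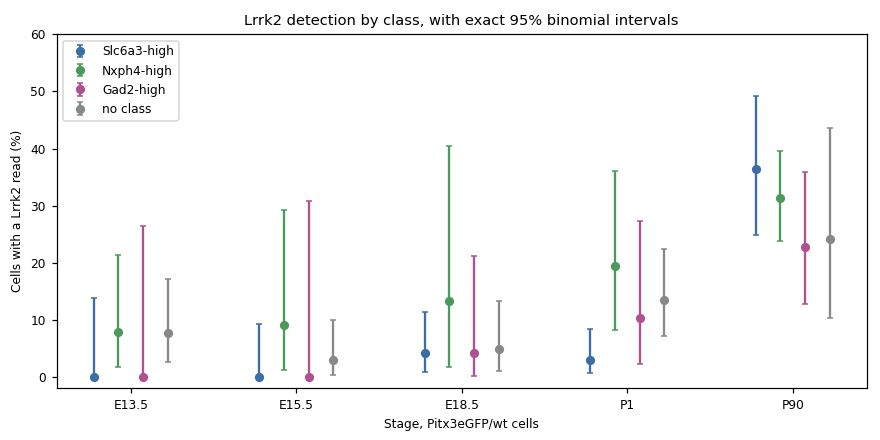
Share of Pitx3eGFP/wt cells with a Lrrk2 read (y axis, percent) at each stage, in Slc6a3-high (blue), Nxph4-high (green) and Gad2-high (purple) cells and cells of no class (grey), with exact 95% binomial intervals. P7 is not drawn, since 2 classes had fewer than 10 cells there. Slc6a3-high cells go from 0 of 25 at E13.5 to 24 of 66 at P90.

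Among Slc6a3-high cells a Lrrk2 read was found in 0 of 25 at E13.5, which allows a share of up to 12%, and in 0 of 38 at E15.5, which allows up to 7.89%. Before P90 such a read was found in 7 Slc6a3-high cells (2.63%, 1.06 to 5.35). At P90 it was found in 24 of 66 (36.4%). Thinned to 100000 reads, these shares were 0.752% and 19.7%. Pooled over E13.5 to P7, the Nxph4-high class had a read in 14 cells (11.8%, 6.58 to 19), or 8.4% after thinning. The stages differed, and at P7 a read was found in 0 of 8 Nxph4-high, 1 of 26 Slc6a3-high and 3 of 43 cells of no class. At E13.5 cells of no class stood at 1.53 RPM and Nxph4-high cells at 1.27 RPM. At P1 a Lrrk2 read was found in 7 of the 36 Nxph4-high cells (5.67 RPM over the class), whereas the Slc6a3-high cells of P1 held 10 reads in 3 cells (0.0605 RPM). At P90 the Nxph4-high and Gad2-high shares were 31.2% and 22.8%, and the intervals of the 3 classes overlapped.

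The stages held different shares of the 3 classes, so P90 was also compared with E13.5 within each class, a comparison added after the data had been seen. Apart from Lrrk2, 4 of the genes were higher by 2-fold in mean RPKM in Slc6a3-high cells and 3 each in Nxph4-high and Gad2-high cells. In mean RPKM 0 were lower by 2-fold, and Atp13a2 was lower in each class by less than that. The background was 24.6% higher and 28.9% lower of all entries tested in Slc6a3-high cells, 27.3% and 25.3% in Nxph4-high cells and 31.1% and 26.5% in Gad2-high cells. Pink1, Dnajc6 and Synj1 were called higher in mean RPKM in each class. Lrrk2 passed the level filter in each class through P90 alone and is described after them. Pink1 averaged an RPKM of 32.9 at E13.5 and 140 at P90 in Slc6a3-high cells, 58.6 and 165.5 in Nxph4-high cells, and 41.1 and 140.6 in Gad2-high cells. Synj1 went from 19.8 to 40.2, from 25 to 50.4 and from 13.9 to 68.7 in the same order, so the pooled Synj1 ratio of under 2-fold lay below the ratio within each class. Park7 was higher by 2-fold in Slc6a3-high cells only, at 212.4 and 459. Whether the classes differ in this was not tested. Fbxo7, called in the pooled comparison, was called within no class, with folds of 1.75, 1.99 and 1.05. Lrrk2 had 0 reads in the Slc6a3-high and Gad2-high cells of E13.5. With so few cells at E13.5, these zeros allow a share of cells with a read of up to 12% and 25%, and no fold is given. At P90 Lrrk2 stood at 12 RPM in Slc6a3-high and 8.43 RPM in Gad2-high cells. In Nxph4-high cells it was at 1.27 RPM at E13.5, from 3 cells, and at 16 RPM at P90. The E13.5 Gad2-high class held 12 cells and the Slc6a3-high class 25. Several of the within-class calls depended on the scale. In RPM the Dnajc6 fold was 1.68 in Slc6a3-high and 1.69 in Nxph4-high cells, and that of Park7 in Slc6a3-high cells 1.77, all under 2-fold. Fbxo7 reached 2.57-fold in Nxph4-high cells in RPM. Atp13a2 was over 2-fold lower in RPM in Slc6a3-high cells, at 127.2 against 276.1, and in Gad2-high cells, at 122.9 against 328.8.

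Between the genotypes the means of the genes tested lay within 2-fold of each other. At E13.5 none of the 8 genes tested was called, against 5.92% of 13692 entries higher and 6.81% lower in Pitx3eGFP/eGFP. The Dnajc6 mean was 85.3 in Pitx3eGFP/eGFP and 118.1 in Pitx3eGFP/wt cells, a log2 difference of −0.47, and that of Uchl1 was 1066 and 1269. Of the 8 genes tested at E13.5, Vps35 alone had the higher mean in Pitx3eGFP/eGFP, at 88.7 and 83.3. Spike-in RNA followed genotype at E13.5, so the 2 cannot be told apart there. Makeup and depth differed as well. Slc6a3-high cells, in which Uchl1 was higher, made up 17.9% of Pitx3eGFP/wt and 0.562% of Pitx3eGFP/eGFP cells at E13.5, and the median cell had 2357900 and 749734 reads. Their part in these values was not tested. The difference in the share of cells over 10 had an interval, for counting error only, of −12.7 to 5.19 points for Fbxo7, −8.12 to 13.5 for Pink1 and 0.294 to 17.6 for Vps35.

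At P1 the comparison used the 93 Pitx3eGFP/wt cells with spike-in RNA and all Pitx3eGFP/eGFP cells, each of which had it. The former came from 1 plate and the latter from 2, so genotype and plate cannot be told apart there. Again none of the 8 genes tested was called, against 11.2% of 14759 entries higher and 4.08% lower. Pink1 averaged an RPKM of 83.2 in Pitx3eGFP/eGFP and 69.4 in Pitx3eGFP/wt, Fbxo7 31.6 and 24.1, Park7 303.6 and 259.04, and Vps35 87.1 and 108.4. The log2 differences lay between −0.32 for Vps35 and 0.39 for Fbxo7. Lrrk2, under the level filter at both stages, was over 10 in 5.06% of Pitx3eGFP/eGFP and 2.15% of Pitx3eGFP/wt cells at P1, and the interval of the difference ran from −2.99 to 7.78 points. Genes of the dopamine phenotype did differ. Slc6a3 averaged 46.2 in Pitx3eGFP/eGFP and 670 in Pitx3eGFP/wt at P1, and Th, which encodes tyrosine hydroxylase, averaged 712 and 1637. The makeup of the 2 genotypes differed as well, with 9.49% of the Pitx3eGFP/eGFP cells and 54.8% of the 93 Pitx3eGFP/wt cells Slc6a3-high. Its part in the values of the 9 genes was not tested.

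**Figure D4:**
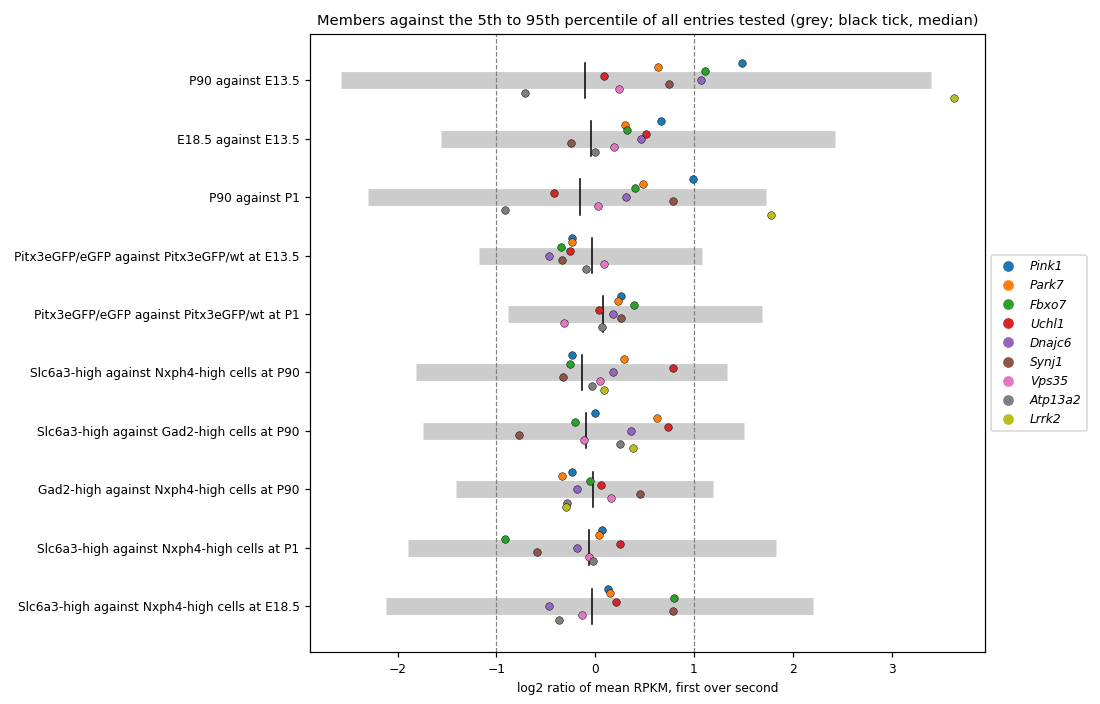
Log2 ratio of mean RPKM (x axis) for each gene in the 10 comparisons (rows), first group over second. Grey bars span the 5th to 95th percentile of all entries tested in that comparison, black ticks mark their median and dashed lines mark 2-fold. Lrrk2 is drawn where it passed the level filter. In the comparison of P90 with E13.5, Lrrk2 lies at 3.63, beyond the grey bar, but it passed the filter there through P90 alone. Pink1, Fbxo7 and Dnajc6 lie past the 2-fold line but within the bar.

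Within P90 the 3 classes held similar levels of most of these genes, and none of the 9 differed by 2-fold between any 2 classes. Between Slc6a3-high (66 cells) and Nxph4-high (44.7% of P90 cells) 7.49% of 14097 entries were higher and 13.2% lower. Between Slc6a3-high and Gad2-high (57 cells) the shares were 9.02% and 12.9% of 13945, and between Gad2-high and Nxph4-high 6.51% and 8.66% of 14140. The interquartile range of Slc6a3-high cells lay apart from that of the other classes for Uchl1. Mean Uchl1 RPKM was 1970 in Slc6a3-high, 1140 in Nxph4-high and 1185 in Gad2-high cells. The interquartile ranges were 1546 to 2208, 907 to 1305 and 969 to 1446, so that of Slc6a3-high cells did not overlap the others. In 92.4% of pairs with a Nxph4-high cell and 90.4% of pairs with a Gad2-high cell the Slc6a3-high cell had more Uchl1. The log2 ratios were 0.79 and 0.73, and the first stood at the 90.1th percentile of all entries tested. On each of the 4 plates the Slc6a3-high mean was the highest, with plate means of 1637 to 2096 against 984 to 1386 and 1064 to 1312. Uchl1 was also highest in Slc6a3-high cells at the earlier stages, by smaller amounts after E15.5. Its means in Slc6a3-high and Nxph4-high cells were 1609 and 1028 at E13.5, 1683 and 1062 at E15.5, 1894 and 1633 at E18.5 and 2016 and 1690 at P1. In Pitx3eGFP/eGFP cells at P1 they were 2261 and 1712.

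Park7 was also highest in Slc6a3-high cells at P90, with means of 459 in Slc6a3-high, 375 in Nxph4-high and 296.7 in Gad2-high cells, but the interquartile ranges overlapped (321.3 to 553, 260.9 to 434 and 201.4 to 399). Synj1 was lowest in Slc6a3-high and highest in Gad2-high cells, at means in the same order of classes of 40.2, 50.4 and 68.7. The share of cells with Synj1 over 10 was 84.8% in Slc6a3-high (73.9 to 92.5) and 98.2% in Gad2-high cells (90.6 to 100), a difference of −13.4 points (−24 to −3.31). Pink1 averaged 140, 165.5 and 140.6, Vps35 95.4, 92.5 and 103.5, Atp13a2 72.8, 74.4 and 61.1, and Lrrk2 3.21, 3.03 and 2.47. For these 4 genes the interquartile ranges of the 3 classes overlapped. Lrrk2 means of single plates ran from 0 to 5.55 among Gad2-high and from 1.60 to 5.74 among Slc6a3-high cells, wider than the difference between classes. Fbxo7 exceeded 10 in 56.1%, 56.2% and 56.1% of cells, and the difference between Slc6a3-high and Gad2-high cells, −0.08 points, had an interval of −17.1 to 17 points.

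**Figure D5:**
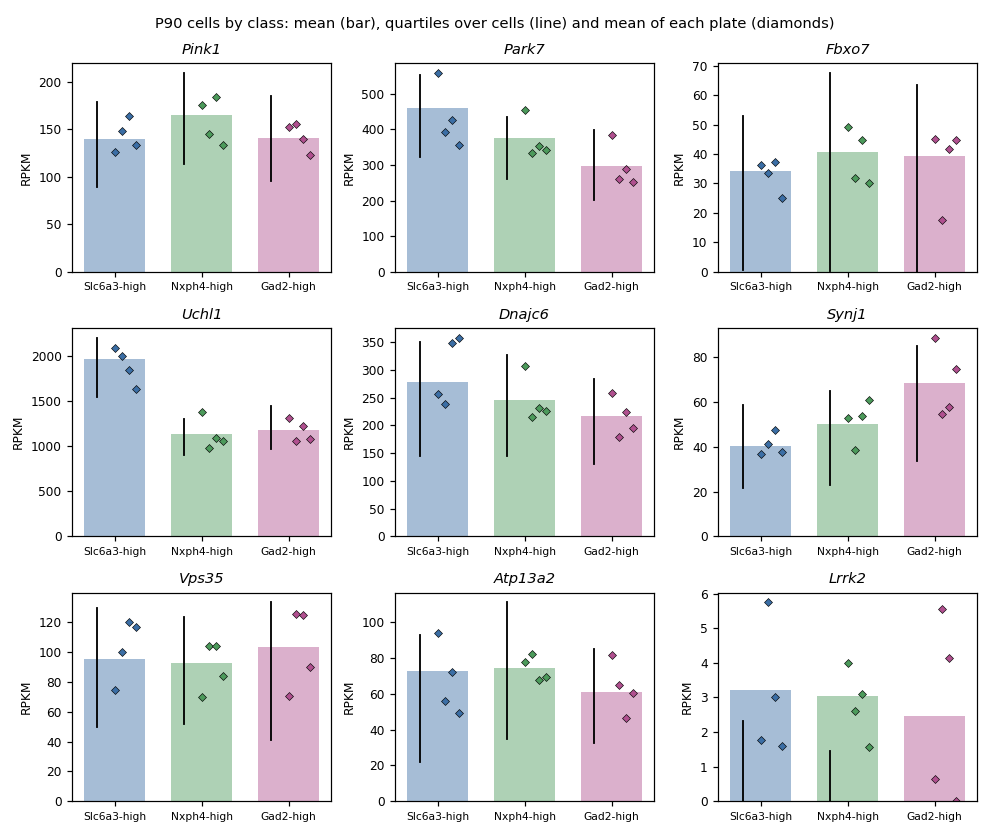
Mean RPKM (y axis, bars from 0) of each gene in Slc6a3-high, Nxph4-high and Gad2-high cells at P90. The vertical line at the left of each bar spans the interquartile range of the cells (both quartiles of Lrrk2 in Gad2-high cells are 0) and diamonds are means of single plates. Uchl1 in Slc6a3-high cells, at 1637 to 2096 by plate, lies above every plate mean of the other classes.

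Slc6a3-high and Nxph4-high cells were also compared at P1 and at E18.5, and none of the genes tested was called at either stage. At P1, 11.8% of 14501 entries were higher and 13.5% lower in Slc6a3-high (38.9% of P1 cells) than in Nxph4-high cells (13.6%, 36 cells), and at E18.5 16% of 13895 were higher and 14.8% lower, with 74 and 15 cells. Spike-in RNA was unevenly spread at P1, where 51 of the Slc6a3-high and 8 of the Nxph4-high cells had it. Class and spike-in are thus mixed there. Dnajc6 averaged 201.7 and 228.9 over these P1 classes, but 164.3 and 94.8 in their cells with spike-in RNA. In those cells Synj1 averaged 15.4 in Slc6a3-high and 32.4 in Nxph4-high cells, more than 2-fold apart, with only 8 Nxph4-high cells. The Fbxo7 mean at P1 was 21.2 and 39.9 (log2 −0.92), yet its medians were 6.62 and 5.12, and single Nxph4-high cells reached 403. In the cells with spike-in RNA it was 17.8 and 22.1. At E18.5 the Fbxo7 ratio had the other sign, at 23.9 and 13.8. E15.5 was not among these comparisons, and there Fbxo7 averaged 27.3 in Slc6a3-high and 9.33 in Nxph4-high cells, more than 2-fold apart, although the median was 0 in both classes and 1 Slc6a3-high cell reached 390. Lrrk2 averaged 0 and 3.67 there, with a Lrrk2 read in 2 of the 22 Nxph4-high cells.

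The wider pathways of these genes were described with 8 lists. At P90 against E13.5 the redox list had 7 of 16 tested genes higher and 1 lower, with a median log2 ratio of 0.87. Among them Glo1, glyoxalase 1, went from 14.2 to 88.3, while Prdx2, a peroxiredoxin, was at 1175 and 415. The lysosome list had 8 of 20 higher and 1 lower, with a median of 0.64. Among the higher genes was the hydrolase Gaa, at 74.4 and 720, a ratio of the opposite sign to that of Atp13a2. The mitophagy list, which also holds receptors that act without PINK1, had 6 of 21 higher and 1 lower, with a median of 0.38, and included the autophagy receptors Optn, at 3.98 and 21.7, and Bnip3, at 17.8 and 62.3. Prohibitin 2 (Phb2) was lower, at 215.1 and 101.8.

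The clathrin list had 7 of 25 higher and 3 lower, with a median of 0.35. 1 of the 7, Synj2, passed the level filter through P90 alone. Sh3gl2, endophilin A1, which recruits synaptojanin, went from 33.3 to 194.98, and the mean of the synaptojanin paralogue Synj2 was 0.137 and 5.83. Dnm2, the ubiquitous dynamin, was lower, at 43.7 and 15.2. Among the Rab substrates of LRRK2 and their partners 4 of 11 were higher and 2 lower. The synaptic Rab3a went from 244.1 to 1175, and Rab10, a major substrate, from 78.8 to 24.4. Retromer and its partners had 1 of 12 higher (Snx5, at 16 and 58.9) and 0 lower, and the ubiquitin list 2 of 10 higher (Uchl5 and Usp14) and 1 lower (Uchl3, at 83.3 and 35.7). Of 13 other genes of inherited parkinsonism 0 were higher and 2 were lower, Pla2g6 (24.2 and 8.18) and Eif4g1 (56.6 and 22.2). These counts are set against the 22.9% and 23.6% of all entries.

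Against P1 the P90 cells had 5 of 16 redox genes higher and 1 lower, among them the mitochondrial peroxiredoxin Prdx5 at 194.02 and 539, and 4 of 21 lysosome genes higher and 1 lower, among them Ctsb at 154.3 and 376. The lower lysosome gene, Atp13a4, passed the level filter through P1 alone, at 2.56 and 0.108. The clathrin list had 3 of 25 higher and 2 lower, the mitophagy list 3 of 21 and 1, the Rab list 2 of 11 and 2, and the ubiquitin list 1 of 10 and 0. The retromer list had 0 of 12 in either direction. Over all entries 12.1% were higher and 20.3% lower. At E18.5 against E13.5 the highest counts were 3 higher, of 16 redox, 20 lysosome, 24 clathrin and 11 Rab genes, against 16% of all entries higher and 11.7% lower.

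Between genotypes at E13.5 each of the Rab, mitophagy, lysosome and redox lists had 1 gene higher in Pitx3eGFP/eGFP, of 11, 20, 20 and 16 tested, and the 8 lists had none lower, against 5.92% and 6.81% of all entries. At P1 3 of 17 redox, 2 of 21 lysosome and 2 of 12 retromer genes were higher in Pitx3eGFP/eGFP and none was lower, against 11.2% and 4.08% of all entries. 1 of the 3 redox genes, Nfe2l2, and 1 of the 2 lysosome genes, Atp13a4, passed the level filter through Pitx3eGFP/eGFP alone. Atp13a4 averaged 2.45 there and 0.038 in the Pitx3eGFP/wt cells with spike-in RNA, but 2.56 over all Pitx3eGFP/wt cells of P1. Among the others Hmox1, heme oxygenase 1, was at 3.38 in Pitx3eGFP/wt and 16 in Pitx3eGFP/eGFP. Microglia also express this gene, and 16 of the Pitx3eGFP/eGFP cells at P1 had 3 glial or vascular markers. The part of those cells in this value was not tested.

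Between classes at P90 each of the 8 lists, of 10 to 25 tested genes, had at most 1 gene called in each direction, genes with a mean under 1 in one class included. The shares over all entries were 7.49% higher and 13.2% lower for Slc6a3-high against Nxph4-high cells, 9.02% and 12.9% for Slc6a3-high against Gad2-high cells, and 6.51% and 8.66% for Gad2-high against Nxph4-high cells. Prdx6, a peroxiredoxin, was higher in Slc6a3-high cells, at 95.7 against 28.5 in Nxph4-high and 23.5 in Gad2-high cells. Hmox1, of the same redox list, was lower in Slc6a3-high cells, at 3.24 against 10.3 and 6.58. Synj2 was highest in Nxph4-high cells, at 8.55 against 1.82 and 3.84.

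The genes whose pattern was most like each of the 9 were sought by Pearson's r of log2(mean RPKM + 1) over 28 groups of stage, genotype and class with at least 10 cells each, among 10275 entries. The classes of 1 stage and genotype come from the same sample, so the groups are not independent, and r is a description. Nenf, a neurotrophic factor, was most like Pink1 (r = 0.92), with Ptprn next. Gadd45gip1, a mitochondrial ribosomal protein, was most like Fbxo7 (0.93), and Emc4 most like Park7 (0.83). For Uchl1 it was Cpne7 (0.87), for Dnajc6 6430548M08Rik (0.89), for Synj1 Tspyl2 (0.83), for Atp13a2 Deaf1 (0.87) and for Lrrk2 Sptbn1 (0.87), a spectrin. Vps35 had the weakest best match, Dzip3 (0.75). Among the 9 genes themselves r was highest between Pink1 and Dnajc6 (0.73) and between Pink1 and Park7 (0.71). It was lowest between Atp13a2 and Synj1 (−0.52), and Atp13a2 was below 0 with each of the others except Uchl1 (0.36).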

How the data were processed

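Full-length cDNA of single sorted cells was sequenced with Smart-seq2 (1 cell per sample). The authors aligned reads to mm10 with STAR, kept unique reads and deposited a raw read count and an RPKM per gene entry. Per the authors' methods, the deposited RPKM was made with rpkmforgenes, relative to gene length and the reads of the cell. Libraries were unstranded.

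Groups came from the sample labels. Cells needed more than 100000 reads and 15% of entries detected (3.4% at P90, of the 31526 entries that any cell had reads for). Cells with at least 3 of 10 oligodendrocyte markers over an RPKM of 10 were left out. No doublet caller was run. Entries without a matched symbol held 0.211% of reads. Uchl1 has a second entry with 0.744% of its reads, which was not used.

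A gene was called when mean RPKM differed at least 2-fold and the 2 means averaged at least 1. Shares have exact Clopper-Pearson intervals, differences Newcombe intervals (95%), and a count of 0 the limit of 3 counts. The reads are not independent molecules, so these cover counting error only. Named were the 9 genes, up to 2 called genes per list, direction and comparison, and the 3 entries most like each gene. Some genes that this rule names are not reported here. The genes and lists were chosen with earlier results of these data known. Alternatives used summed reads, edgeR 4.0.16 (TMM) and DESeq2 1.42.0 (size factors) for scaling only, other filters, classes and single plates. The ratio code was run on Poisson counts simulated from group means, with changes larger than 2-fold in well-read entries only. That run does not cover 2-fold calls, the spread of expression between cells or genes near the lower limit of detection. Python 3.11.15, scipy 1.17.1, scanpy 1.11.5 and R 4.3.3 were used.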

Additional observations from a re-analysis of the deposited data

How the results depend on the processing

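Of the recomputed counts of called genes 81.7% stayed within 1.5 times the first value, and 32 moved. Of 1569 recomputed log2 ratios of single genes, 1508 kept their call, 14 lost it, 47 gained it and 0 reversed as called values. No paired test was made, as no groups were tested against each other. Values within single plates are given in its place.

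With Lrrk2 counted, P90 against E13.5 gave 2 genes in place of 4 with P90 plate 2 alone (Pink1 and Lrrk2) and with plate 5 alone (Pink1 and Synj1). There Fbxo7 and Dnajc6 lay just under the line, at log2 ratios of 0.99 and 0.97 on plate 2 and 0.94 and 1.00 on plate 5, and Lrrk2 on plate 5, at 1.93, missed only the level filter. P90 against P1 gave 3 in place of 1 with RPM of summed reads, TMM, DESeq2 size factors and plate 4 alone, 2 with a rule of 2 markers, Leiden clusters, plate 1 or plate 5 alone, 4 with the mean of log2 values, and 0 with a mean of at least 5. Pink1 lay at 1.99-fold there and passed or missed the line with small changes. E18.5 against E13.5 gave 1 without the level filter (Lrrk2) and 2 with the mean of log2 values (Pink1 and Fbxo7). The genotype comparison gave 1 at E13.5 with plate 5 alone (Synj1), and 1 at P1 (Lrrk2) without the level filter, with no cell left out, or with plate 2 alone. Between P90 classes, Slc6a3-high against Nxph4-high gave 1 with plate 1 alone and 2 with plate 2 alone (Uchl1 and Lrrk2), Slc6a3-high against Gad2-high gave 2 with plate 1 alone, and Gad2-high against Nxph4-high gave 1 with either plate (Lrrk2). The direction of that last ratio was not stable. Over the settings it ran from −2.64 to 1.09 on the log2 scale, with the same sign in 17 of 20. Slc6a3-high against Nxph4-high gave 1 at P1 without the level filter, with no cell left out, with Leiden clusters (Lrrk2), with a rule of 2 markers, a class threshold of 300 or cells of more than 1 class counted in each (Fbxo7), and at E18.5 gave 1 without the level filter or with plate 1 alone and 2 with plate 2 alone. The cause was not tested. Leaving out the 52 cells with astrocyte, microglia or vascular markers, chosen after seeing the data, moved no count. TMM and DESeq2 scaling moved the median of all entries to 0.03 for P90 against P1, from −0.16.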
